A study of Mus musculus with 10 samples.

Results

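Mucins and the Golgi enzymes that build their sugar chains were followed in sorted tuft cells and non-tuft epithelial cells of the inflamed mouse pancreas. All genes were taken whose name marks them as a numbered mucin or as one of the fucosyl-, sialyl-, GalNAc-, galactosyl-, GlcNAc- or sulfotransferase families Fut, St3gal, St6gal, St8sia, Galnt, B3gnt, B3galt, B4gal, Gcnt, Mgat and Chst. This rule on names found 64 of 12160 listed genes. The names cover 112 protein-coding genes in an annotation of NCBIM37. Since the authors removed genes of low RPKM variance from the table, the 64 also depend on expression, and the others were not analysed here.

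RNA was sequenced by Smart-Seq2, a full-length method for small cell numbers, in 10 libraries from wild-type mice with pancreatitis induced by repeated cycles of the cholecystokinin analog caerulein. Of these, 5 libraries held Cd45-negative, EpCAM+, Siglec f+ tuft cells and 5 held Cd45-negative, EpCAM+, Siglec f-negative non-tuft epithelial cells, with 100 cells sorted for each library. The labels give the strain as Mixed in one field and male CD1 mice in another, and no age. Each tuft library came from a single mouse, and the methods have both cell fractions sorted from the same set of 5 mice. The libraries of each group are numbered 1 to 5, and whether equal numbers mean a shared mouse is not stated in the sources used here.

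Mucins are large proteins whose serine- and threonine-rich stretches carry dense O-linked sugar chains, either anchored in the apical membrane or secreted as gel. In the Golgi, GalNAc-transferases start each O-linked chain, and Gcnt enzymes branch it. Mgat enzymes branch the N-linked chains of other glycoproteins, while galactosyl- and GlcNAc-transferases lengthen both kinds and the sugar chains of glycolipids. Fucose, sialic acid and sulfate are added last and form the outer surface that lectins and microbes meet. In the injured pancreas, metaplastic ducts and glands are known for mucin production.

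Values are log2(RPKM + 1) after quantile normalization by the authors, and a difference between groups is a log2 fold change, tuft minus non-tuft, on this scale. RPKM is scaled to transcript length, and levels are also set side by side between genes below. Other differences between genes in how they are measured were not checked, so such comparisons are approximate. The lowest value of a library, called the floor here, stands for a gene without signal, and is 0 in each library but non-tuft library 2, where it is 0.17. A gene was called higher or lower at an adjusted p under 0.05 from limma's moderated test and a fold over 4.

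The libraries carried the markers of their labels. Of 19 listed tuft markers, all 19 were called higher in the tuft libraries, with a summed linear RPKM of 5010 to 13400 against 3.19 to 634 in the non-tuft libraries. The non-tuft sums were 240, 634 and 627 in numbers 1, 2 and 5 and 9.52 and 3.19 in numbers 3 and 4. The list holds Siglecf, which encodes the protein used for sorting. It was also chosen with earlier results of these data known, so the count is no independent check of the labels. Of 21 acinar markers, 17 were called lower, with sums of 843 to 77100 in the tuft and 84400 to 125000 in the non-tuft libraries, and tuft library 4 held the highest tuft value. No marker of these 2 lists was at the floor throughout a group. Islet marker sums ran from 2.71 to 22900 in the non-tuft libraries, highest in number 1, and from 28.0 to 124 in the tuft libraries, and 4 of 16 were called lower. Ppy, Scg2 and Gcg were at the floor in every tuft library. Of 13 ductal markers, 1 was called higher and 2 lower, with sums of 1030 to 1310 in tuft and 745 to 5320 in non-tuft libraries. Of 8 leukocyte markers, only Ptprc, which encodes the Cd45 used to remove leukocytes, was called, with a log2 difference of 2.72 (limma adjusted p = 0.00292), and the list summed to 18.2 to 42.6 in tuft and 0.751 to 65.6 in non-tuft libraries. Of 11 fibroblast and endothelial markers, 1 was called higher, with sums of 9.85 to 283 and 1.37 to 803. Over all listed genes, 4.32% were called higher and 3.99% lower. The part of these cell types in the results below was not tested, and in bulk libraries fewer cells of a type and less RNA per cell cannot be told apart.

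Tuft cells had 6 of the 64 genes called higher (9.38%) and 1 called lower (1.56%), where 4.32% of all listed genes were called higher and 3.99% lower. The risers were B4galt5, Muc13, St3gal2, Fut2, St3gal6 and Mgat3, which belong to 5 different roles, and the gene that fell was Chst2. Without the fold threshold, 8 passed the adjusted p as higher and 3 as lower, against 6.19% and 5.55% of all genes. The median log2 fold change was 0.18 over the 64 genes and 0.02 over all listed genes. It was -0.06 without tuft library 1, -0.01 without tuft library 4 and 0.04 without non-tuft library 2. When each library was centred on its ribosomal protein genes, the medians were 1.01 and 0.85. Limma then called 10 of the 64 higher and 0 lower (26 and 1 at an unadjusted p under 0.05). Higher calls also rose over the whole table, with 1355 of 12160 genes called higher and 221 lower, against 525 and 485 without centring. Over all genes the called share that was higher moved from 52.0% to 86.0% under this centring.

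**Figure D1:**
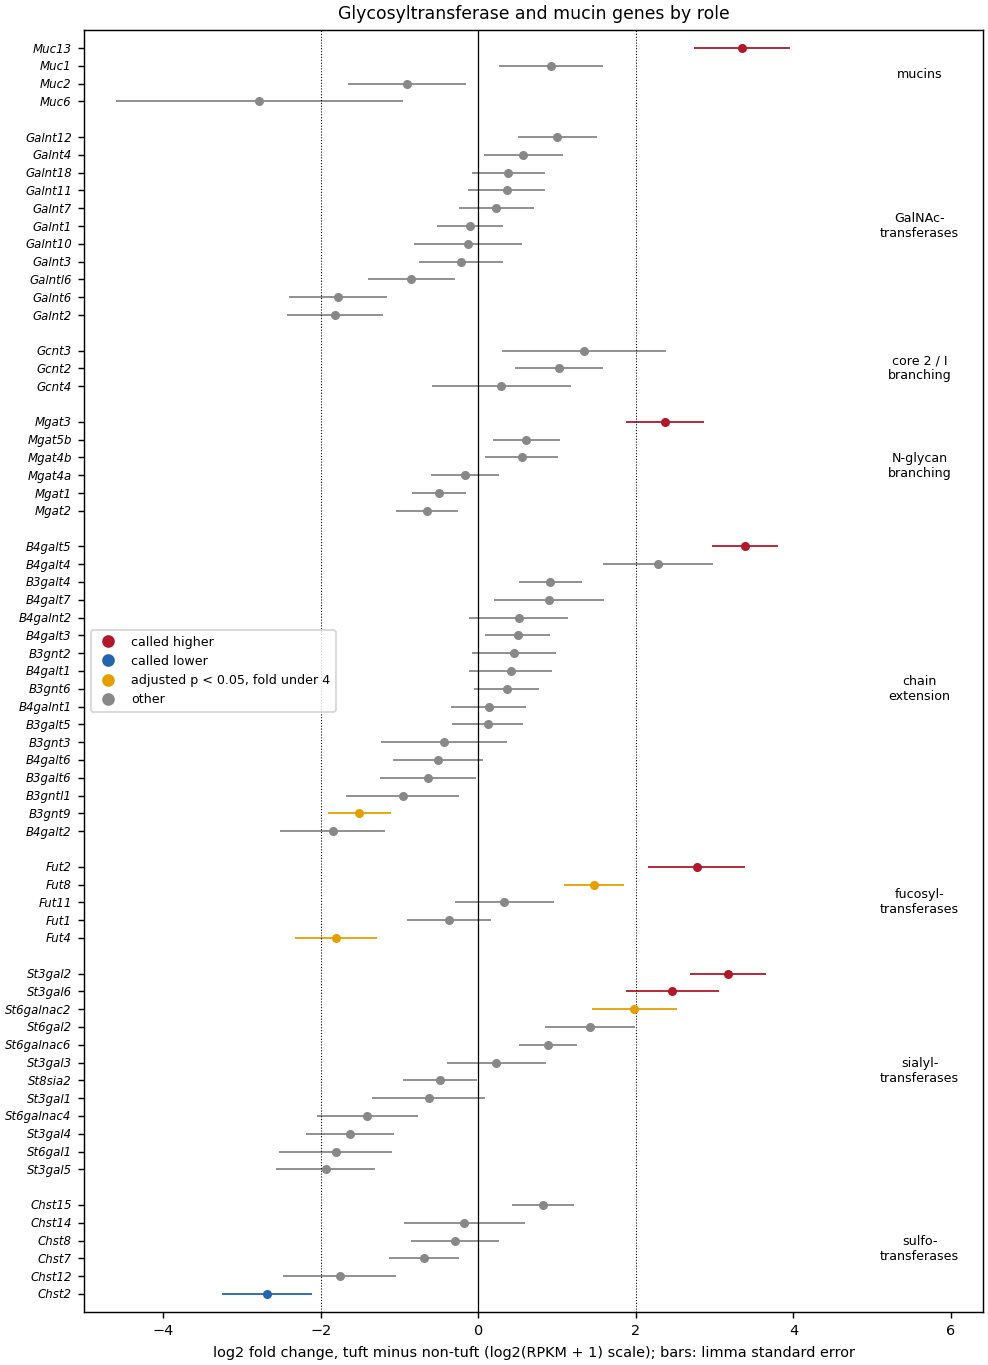
Log2 fold change, tuft minus non-tuft, of each of the 64 genes, with limma's standard error as bars, grouped by role, and dotted lines at the fold of 4. The 6 called risers lie in 5 role groups, from Mgat3 at 2.37 to B4galt5 at 3.38, and the GalNAc-transferases all lie between -1.82 and 1.00.

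For 7 of the 64 genes every tuft value lay above every non-tuft value, and for 3 every one lay below (10.9% and 4.69%, against 6.31% and 5.12% of all listed genes). Between 11 and 27 of the 64 were at the floor in a non-tuft library and between 13 and 22 in a tuft library. Of the 64, 24 were above the floor in every library (37.5%, against 50.2% of all genes), 4 never left the floor in tuft cells and 5 never left it in non-tuft cells. For 41 of them (64.1%) the SD was larger among the non-tuft than among the tuft libraries, close to the 62.7% of all listed genes.

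Promoter sequence is shown for the called genes found in the RefSeq table (GRCm38.p6), B4galt5, Muc13, St3gal6 and Chst2, and for the gland mucin Muc6, which varied most between libraries. The table held promoters of 48 of the 64 genes. The stretches are the 250 bases before the annotated start, 5′ to 3′ on the strand of the gene, at chr2:167349179-167349428 (minus strand) for B4galt5, chr16:33793787-33794036 (plus strand) for Muc13, chr16:58524254-58524503 (minus strand) for St3gal6, chr9:95407271-95407520 (minus strand) for Chst2 and chr7:141655394-141655643 (minus strand) for Muc6. Muc13 and St3gal6 have 2 starts in the table, of which the first listed is shown. Capitals mark CpG, the dinucleotide that is dense in the promoters of many broadly expressed genes.
B4galt5: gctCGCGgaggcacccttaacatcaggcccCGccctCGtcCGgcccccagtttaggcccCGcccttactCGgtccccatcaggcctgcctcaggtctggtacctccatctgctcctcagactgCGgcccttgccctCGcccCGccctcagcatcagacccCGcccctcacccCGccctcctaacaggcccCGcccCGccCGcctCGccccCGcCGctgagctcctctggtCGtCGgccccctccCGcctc
Muc13: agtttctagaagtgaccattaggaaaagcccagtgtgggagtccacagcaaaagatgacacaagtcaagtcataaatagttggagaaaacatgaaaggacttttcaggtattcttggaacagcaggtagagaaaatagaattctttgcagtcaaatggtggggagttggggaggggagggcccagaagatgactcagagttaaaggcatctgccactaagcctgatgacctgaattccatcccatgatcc
St3gal6: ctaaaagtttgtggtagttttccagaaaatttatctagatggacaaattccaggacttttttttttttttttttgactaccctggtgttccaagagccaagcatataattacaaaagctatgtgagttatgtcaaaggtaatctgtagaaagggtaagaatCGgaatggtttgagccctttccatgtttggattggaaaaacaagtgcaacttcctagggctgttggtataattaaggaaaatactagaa
Chst2: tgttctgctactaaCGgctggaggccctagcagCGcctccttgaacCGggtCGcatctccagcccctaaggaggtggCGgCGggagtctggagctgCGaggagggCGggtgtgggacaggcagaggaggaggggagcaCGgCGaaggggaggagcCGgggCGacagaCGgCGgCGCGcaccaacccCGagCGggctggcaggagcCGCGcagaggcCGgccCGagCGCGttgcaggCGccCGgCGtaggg
Muc6: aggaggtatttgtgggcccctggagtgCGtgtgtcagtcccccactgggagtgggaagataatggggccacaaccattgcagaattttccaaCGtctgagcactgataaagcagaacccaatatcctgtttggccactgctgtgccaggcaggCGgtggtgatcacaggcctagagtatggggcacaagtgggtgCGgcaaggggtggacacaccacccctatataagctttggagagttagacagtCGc

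The risers with a promoter in the table, B4galt5, Muc13 and St3gal6, did not share one promoter type at the starts shown. B4galt5 had 21 CpG and the falling Chst2 had 27, more than 83.7% and 91.4% of the 32851 promoters of the table, while Muc13 had 0 and St3gal6 had 1. Muc6 had 5, near the median of 6 over all promoters, and the 66 promoters of the 48 genes had a median of 14. The octamer ATGCAAAT, to which POU factors such as the tuft regulator Pou2f3 are known to bind, was searched on both strands. It lay in 2 of the 66 promoters (3.03%), those of Galnt11 and Gcnt2, and in 1.6% of all. Neither of these genes was called. The E-box CAGCTG lay in 7.58% of the 66 and 13% of all, and the E-box CACCTG on either strand in 13.6% and 17.2%. None of the 5 stretches printed above held any of these letters.

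Of the 4 mucins, limma called Muc13 higher in tuft cells and none lower, where 4.32% of all listed genes were called higher and 3.99% lower. Muc13, a membrane mucin of gastrointestinal epithelia (chromosome 16, 33794123 to 33820020 in NCBIM37, as for the other positions given by chromosome), was at 4.29, 4.93, 4.94, 4.62 and 4.64 in tuft libraries 1 to 5. In non-tuft libraries 1 to 5 it was at 0.55, 1.59, 0.21, 3.78 and 0.56, so every tuft library was higher and only non-tuft library 4 came near. Tuft minus non-tuft gave 3.35 in log2 (SE 0.61, limma adjusted p = 0.00316), and every tuft value lay above every non-tuft value (exact permutation test, two-sided, p = 0.00794, the smallest it can give). With each library left out, its log2 fold change stayed between 3.06 and 3.96 and its adjusted p at or under 0.0119. An annotated noncoding transcript, Gm15657, overlaps an exon of Muc13 on the other strand, and the library method as described does not mark strand.

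Muc1, the membrane mucin of pancreatic duct cells (chromosome 3, 89032979 to 89037303), was the highest of the 64 genes in tuft cells, at 6.84 ± 0.81 (SD, n = 5 libraries). In the non-tuft libraries it was at 5.92 ± 1.43 (SD, n = 5 libraries), lowest in number 2 at 3.70. The difference was not called, with a log2 difference of 0.92 (SE 0.66, limma adjusted p = 0.429). Muc1 is also a member of the ductal marker list. Muc13 stood below Muc1 in every library, by 2.16 ± 0.75 (SD, n = 5 libraries) on average in tuft cells, as the difference of log2 values, and by 4.58 ± 2.09 (SD, n = 5 libraries) in non-tuft cells.

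Muc6, the gel-forming mucin of gastric glands (chromosome 7, 148819871 to 148841218), was the most variable. It was at 11.57, 9.30 and 8.82 in non-tuft libraries 3, 4 and 5 and at only 0.99 and 3.63 in numbers 1 and 2. In tuft libraries 1 to 5 it was at 6.24, 5.23, 2.06, 0.55 and 6.36. The groups overlapped, although non-tuft libraries 3, 4 and 5 lay above every tuft value. The log2 fold change of -2.78 (standard error 1.82) was not called (adjusted p = 0.381, limma, and 0.127 to 0.641 with each library left out). Muc2, the gel-forming mucin of intestinal goblet cells, was at 4.37 in non-tuft library 4 and at the floor in the other 9 libraries.

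Gcnt3 and A4gnt were also high in non-tuft libraries 3 to 5 and at the floor in numbers 1 and 2, while in tuft cells Gcnt3 did not vary as Muc6 did. Gcnt3, which branches mucin-type O-linked chains (chromosome 9, 69879303 to 69885895), was at 6.28, 4.35 and 4.12 in non-tuft libraries 3, 4 and 5. In the tuft libraries Gcnt3 was at 4.62, 4.66, 3.34, 4.68 and 4.35, and it was the only one of these genes with a narrow range there. A4gnt, which caps gland mucin chains with GlcNAc (chromosome 9, 99512921 to 99522786) and was singled out after its values were seen, was at 8.36, 4.77 and 5.86 in the same libraries. In tuft libraries 1 to 5 it was at 3.78, 1.92, 0, 0 and 0.82. Neither gene was called (log2 fold change 1.34 with adjusted p = 0.472 for Gcnt3, and -2.53 with adjusted p = 0.305 for A4gnt, limma). The list of gastric pit and neck markers, to which Muc6 belongs, summed to 23500, 4160 and 4380 in non-tuft libraries 3, 4 and 5 and to 1450 and 2110 in numbers 1 and 2. Its sums in the tuft libraries ran from 339 to 4780, and Gkn1 never left the floor in the non-tuft group. Of its 13 listed members, 4 were called lower (30.8%, against 3.99% of all listed genes), namely Vsig1, Aqp5, Dmbt1 and Tff2.

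**Figure D2:**
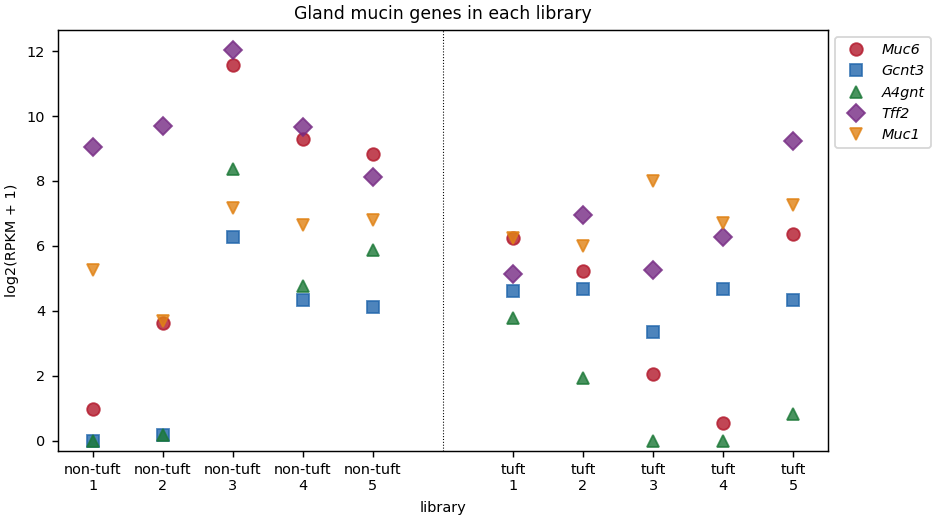
Values in log2(RPKM + 1) of Muc6, Gcnt3, A4gnt, Tff2 and Muc1 in each of the 10 libraries, with non-tuft on the left and tuft on the right. Muc6, Gcnt3 and A4gnt were high together in non-tuft libraries 3 to 5 and low in 1 and 2, while Gcnt3 stayed between 3.34 and 4.68 in tuft cells.

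No GalNAc-transferase, the enzymes that start O-linked chains, passed the test. Of 11 listed, limma called 0 in either direction, near the 4.32% of all listed genes called higher and 3.99% called lower. At an unadjusted p under 0.05, 0 were higher and 2 lower, which 12.9% of all listed genes passed as higher and 12.2% as lower. Their median log2 fold change was -0.11, with a range from -1.82 for Galnt2 to 1.00 for Galnt12. Galnt7 had the highest mean level of the family in both groups, at 4.22 ± 0.94 (SD, n = 5 libraries) in tuft and 3.99 ± 0.43 (SD, n = 5 libraries) in non-tuft cells. Galnt2 (chromosome 8, 126755291 to 126869624) was at 0.43 to 3.80 in the tuft and 2.76 to 4.62 in the non-tuft libraries and missed the threshold (limma adjusted p = 0.0752). It was called lower, with an adjusted p of 0.0275 and a log2 difference of -2.25, when tuft library 2 was left out. Galnt12 was at 2.23 ± 0.51 (SD, n = 5 libraries) in tuft and 1.23 ± 0.95 (SD, n = 5 libraries) in non-tuft cells (limma adjusted p = 0.231).

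None of the 3 core 2 and I-branching enzymes was called by limma, against 4.32% of all listed genes called higher and 3.99% lower. At an unadjusted p under 0.05 the counts were 0 and 0, against 12.9% and 12.2% of all. With so few genes, these counts are near the shares over all genes. Gcnt4, another core 2 enzyme, had the smallest change, 0.29 with a standard error of 0.88, and reached 4.55 in a single non-tuft library, number 1, with tuft values of 0 to 2.90. Its sign turned when non-tuft library 2, 3 or 4 was left out, to between -0.09 and -0.05.

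Of the 6 N-glycan branching enzymes, 1 was called higher and 0 lower, against 4.32% and 3.99% of all listed genes. At an unadjusted p under 0.05 these counts were 1 and 0, against 12.9% and 12.2% of all. Mgat3, which adds the bisecting GlcNAc that stops further branching (chromosome 15, 80004151 to 80045949), was at 4.39, 3.42, 3.62, 2.27 and 3.26 in tuft libraries 1 to 5. In non-tuft libraries 1 to 5 it was at 1.41, 0.17, 0.49, 0.98 and 2.07. No values overlapped, although tuft library 4 and non-tuft library 5 were close to each other. On the log2 scale the groups differed by 2.37 (SE 0.49, limma adjusted p = 0.00679), a fold of 5.16, and the smallest among the called risers. It kept its call with each library left out, with an adjusted p of at most 0.0218. Neither of the next enzymes was called. Mgat2 was at 3.0 ± 0.43 (SD, n = 5 libraries) in tuft and 3.65 ± 0.49 (SD, n = 5 libraries) in non-tuft cells (limma adjusted p = 0.338), and this difference of -0.65 turned to 0.18 under centring on ribosomal protein genes. Mgat4b, which adds a further branch, was the highest of the family, at 5.17 ± 0.74 and 4.63 ± 0.57 (SD, n = 5 libraries each).

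Among 17 enzymes that extend chains with galactose, GlcNAc or GalNAc, 1 was called higher and 0 lower, against 4.32% and 3.99% of all listed genes. At an unadjusted p under 0.05 these counts were 3 and 2, against 12.9% and 12.2% of all. The called gene was B4galt5, one of the enzymes that make lactosylceramide, the base of most complex glycolipids (chromosome 2, 167123944 to 167174683). B4galt5 was at 4.64, 3.96, 3.97, 4.76 and 3.60 in tuft libraries 1 to 5 and at 1.44, 0.17, 0.37, 0.57 and 1.47 in non-tuft libraries 1 to 5. The lowest tuft value stood well above the highest non-tuft value. Its log2 difference of 3.38 (SE 0.42, limma adjusted p = 2.29e-04) was the largest of the 64 genes, a fold of 10.4, and stayed between 3.22 and 3.55 with each library left out.

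B4galt6, which catalyses the same step as B4galt5, was not called. It was at 5.03 ± 0.87 (SD, n = 5 libraries) in tuft and 5.54 ± 1.04 (SD, n = 5 libraries) in non-tuft cells, a log2 difference of -0.51 (limma adjusted p = 0.628) that turned to 0.32 under centring on ribosomal protein genes. Within each library, B4galt5 stood 4.69, 6.46, 4.99, 5.09 and 2.42 below B4galt6 in non-tuft libraries 1 to 5, as a difference of log2 values. In tuft libraries 1 to 5 it stood 1.63, 0.82 and 0.53 below, 0.68 above and 1.93 below. By these values B4galt6 thus stood above B4galt5 in each non-tuft library, and the pair was at more even levels in tuft cells. This pair was chosen after its values were seen, and no test is given.

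B4galt4, a galactosyltransferase that favours sulfated GlcNAc (chromosome 16, 38742377 to 38769162) and is named here after its values were seen, was the nearest to a call among the rest. It was at 4.15 to 5.06 in the tuft libraries and at 0.21 to 4.59 in the non-tuft libraries, where numbers 2 and 4 were high at 4.59 and 3.52. Its log2 fold change of 2.28 (standard error 0.70) had an adjusted p of 0.0518 (limma). It was called when non-tuft library 2 was left out (adjusted p = 0.0130), or library 4 (0.0491), and by the fit with trend and robust settings. B4galt1, the general chain-extending enzyme, was the highest of the family in tuft cells, at 5.08 ± 0.26 (SD, n = 5 libraries) against 4.67 ± 1.19 (SD, n = 5 libraries) in non-tuft cells, where number 1 was low at 2.69. Its difference of 0.41 turned to -0.08 without that library.

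At the other end, B3gnt9, a member of the GlcNAc-transferase family, was at the floor in 4 tuft libraries and at 0.84 in number 2, against 0.97 to 2.38 in the non-tuft libraries. It passed the adjusted p (0.0245, limma, 0.0570 and 0.0579 without tuft library 3 or 5) with a log2 difference of -1.51, under the fold threshold. Centred on ribosomal protein genes, the log2 difference of B3gnt9 was -0.68 (limma adjusted p = 0.298). B4galt2 had the largest fall of the family, -1.85, but was at 3.56 and 3.97 in non-tuft libraries 1 and 2 and at 0.17 to 1.21 in the others (limma adjusted p = 0.0992). It was called lower when non-tuft library 3 was left out (adjusted p = 0.0397), and its exons overlap those of Ccdc24 on the same strand.

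**Figure D3:**
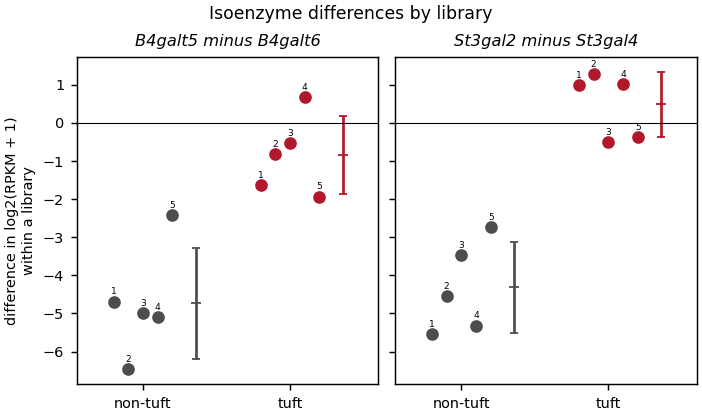
Difference in log2(RPKM + 1) within each library for B4galt5 minus B4galt6 and for St3gal2 minus St3gal4, with the mean and SD of 5 libraries beside the points and library numbers above them. All non-tuft libraries lie below all tuft libraries in both panels, at -2.42 or lower for the first pair and -2.73 or lower for the second.

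Among the fucosyltransferases only Fut2 was called. Fut4, the only one past the adjusted p as lower, lost it in most fits with a library left out. Of 5 listed, 2 passed the adjusted p as higher, of which 1 was called, and 1 as lower. Of all listed genes, 6.19% passed it as higher and 5.55% as lower. Fut2, the secretor enzyme that makes the fucosylated H antigen on mucosal surfaces (chromosome 7, 52903965 to 52921764), was at 4.04, 4.28, 5.51, 4.26 and 5.17 in tuft libraries 1 to 5. In non-tuft libraries 1 to 5 it was at 1.32, 1.6, 3.25, 0 and 3.25, so the groups did not overlap. The difference was 2.77 log2 units (SE 0.62, limma adjusted p = 0.0106), a fold of 6.82. With 0.1 instead of 1 added before the log, its adjusted p was 0.0671, and it was 0.0552 when tuft library 4 and non-tuft library 1 were both left out. Fut1, its neighbour on chromosome 7 (52872976 to 52876429), makes the same linkage, was near the floor and is named here after its values were seen. It was at the floor in 4 tuft and 3 non-tuft libraries and reached at most 2.18, in non-tuft library 1 (limma adjusted p = 0.712).

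Fut8, which adds the core fucose of N-glycans (chromosome 12, 78340052 to 78577325), had the narrowest spread over tuft libraries among the genes that rose. It was at 3.44 to 3.89 in the tuft libraries and 1.48 to 2.92 in the non-tuft libraries. The log2 fold change of 1.47 (SE 0.38, limma adjusted p = 0.0241) lay under the fold threshold, and its adjusted p stayed at or under 0.0491 with each library left out. Fut4, an enzyme that makes the Lewis x epitope (chromosome 9, 14552903 to 14556566), was at the floor in 4 tuft libraries and at 0.11 in number 3. It was at 0.57, 1.47, 1.25, 3.68 and 2.20 in non-tuft libraries 1 to 5. Tuft minus non-tuft gave -1.81 in log2 (SE 0.52, limma adjusted p = 0.0396), under the fold threshold. The adjusted p lay between 0.0540 and 0.0819 in 8 of 10 fits with a library left out. It was 0.0195 without non-tuft library 1, 0.0476 without number 3, and 0.0544 with the replicate number as a block. Centred on ribosomal protein genes, the log2 difference of Fut4 was -0.98 (limma adjusted p = 0.223).

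Of 12 sialyltransferases, 2 were called higher and 0 lower by limma, against 4.32% and 3.99% of all listed genes. At an unadjusted p under 0.05, 5 were higher and 4 lower, against 12.9% and 12.2% of all. St3gal2, which sialylates core O-linked chains and gangliosides (chromosome 8, 113443822 to 113496380), was at 4.37, 4.59, 3.83, 4.48 and 3.89 in tuft libraries 1 to 5. It was at 0, 0.17, 2.13, 1.81 and 1.17 in non-tuft libraries 1 to 5, far below each tuft value. On the log2 scale the groups differed by 3.17 (SE 0.48, limma adjusted p = 9.28e-04), a fold of 9.02, and stayed between 2.91 and 3.44 with each library left out.

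St3gal6, which sialylates lactosamine chains (chromosome 16, 58468238 to 58524356), was at 2.35, 3.28, 4.80, 3.81 and 4.73 in tuft libraries 1 to 5 and at 2.59, 0.17, 1.65, 0.48 and 1.76 in non-tuft libraries 1 to 5. Here non-tuft library 1 lay above tuft library 1. The difference was 2.46 log2 units (SE 0.59, limma adjusted p = 0.0158), and the adjusted p was 0.0501 without tuft library 3. An exon of Dcbld2 overlaps St3gal6 on the other strand, and Dcbld2 itself was at 1.35 ± 0.35 in tuft and 0.64 ± 0.76 in non-tuft cells (SD, n = 5 libraries each). St6galnac2, which sialylates the first GalNAc of O-linked chains (chromosome 11, 116536617 to 116556182), was the highest sialyltransferase in tuft cells, at 5.23 to 5.74, against 2.17 to 4.44 in the non-tuft libraries. Its log2 fold change of 1.98 (SE 0.54, limma adjusted p = 0.0285) was the one just outside the fold threshold, as Mgat3 was the one just inside. Its adjusted p was over 0.05, at most 0.0705, when non-tuft library 2 or 4 or any of tuft libraries 2 to 5 was left out, and it passed both thresholds without one of the other 4 libraries. Its exons overlap those of 1810032O08Rik on the other strand, which was at 0.96 ± 0.55 in tuft and 2.01 ± 0.87 in non-tuft cells (SD, n = 5 libraries each).

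St3gal4 and St3gal5 had lower means in tuft cells and were not called. St3gal4, which acts on the same lactosamine chains as St3gal6 (chromosome 9, 34854164 to 34924395), was the highest sialyltransferase in non-tuft cells, at 3.91 to 7.13 against 3.29 to 4.33 in tuft cells (log2 difference -1.63, limma adjusted p = 0.0795). St3gal5, which turns lactosylceramide into the first ganglioside (chromosome 6, 72047607 to 72104564), was at the floor in 3 tuft libraries and at most at 0.80 in the others. In non-tuft libraries 1 to 5 it was at 4.03, 3.25, 1.77, 2.04 and 0.13 (log2 difference -1.94, limma adjusted p = 0.0658). Both were called lower when non-tuft library 5 was left out, with adjusted p of 0.0295 for St3gal4 and 0.0102 for St3gal5. Within a library, St3gal2 stood 5.54, 4.54, 3.46, 5.32 and 2.73 below St3gal4 in non-tuft libraries 1 to 5, as a difference of log2 values. In tuft libraries 1, 2 and 4 it stood 1.00, 1.29 and 1.02 above St3gal4, and in numbers 3 and 5 it stood 0.50 and 0.38 below. This pair too was chosen after its values were seen.

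**Figure D4:**
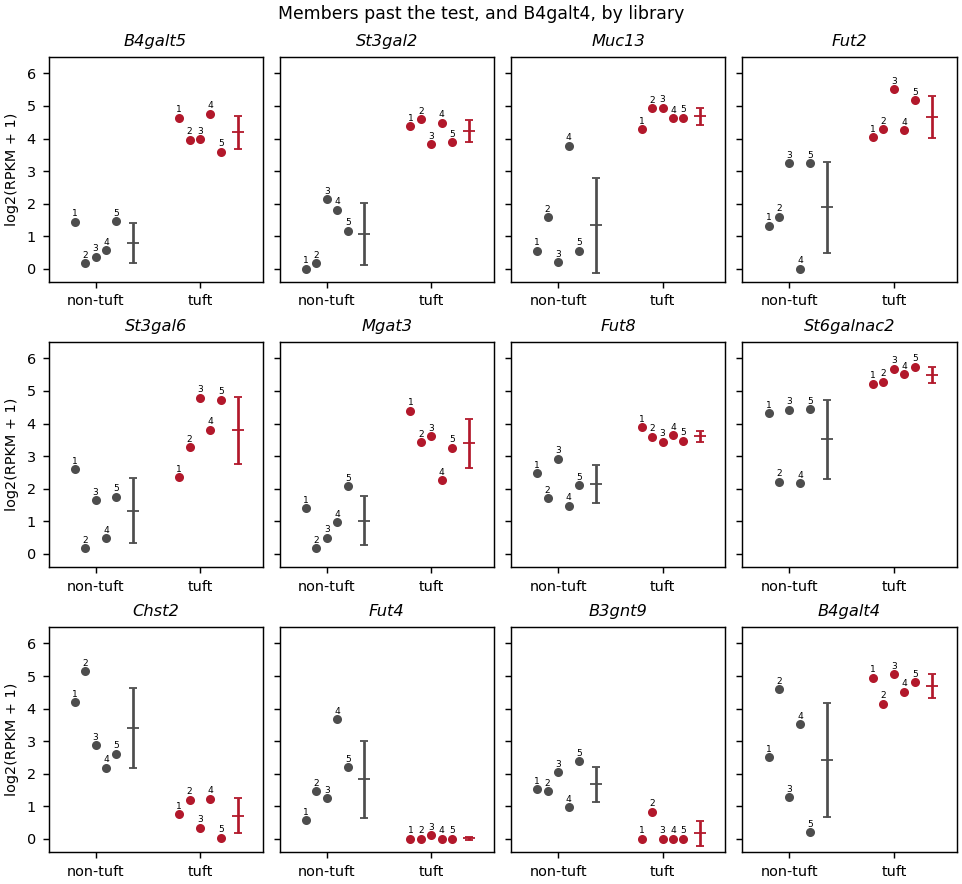
Values in log2(RPKM + 1) of the 11 genes past the adjusted p, and of B4galt4, in each library, with library numbers at the points and the mean and SD of 5 libraries beside them. Tuft values lie between 3.60 and 4.76 for B4galt5 and between 3.44 and 3.89 for Fut8, above every non-tuft value, and Chst2, Fut4 and B3gnt9 show the reverse order.

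Of 6 carbohydrate sulfotransferases, 1 was called lower and 0 higher, against 3.99% and 4.32% of all listed genes. At an unadjusted p under 0.05 these counts were 2 and 0, against 12.2% and 12.9% of all. Chst2, which sulfates GlcNAc at chain ends (chromosome 9, 95301348 to 95307689), was at 4.19, 5.14, 2.87, 2.19 and 2.62 in non-tuft libraries 1 to 5. In tuft libraries 1 to 5 it was at 0.75, 1.21, 0.34, 1.24 and 0.04, so the groups did not overlap. Tuft minus non-tuft gave -2.68 in log2 (SE 0.57, limma adjusted p = 0.00725), a 6.43-fold higher level in non-tuft cells, and fell short of the fold threshold under centring on ribosomal protein genes (-1.86, adjusted p = 0.0268). The highest values of Chst2 were in non-tuft libraries 1 and 2, where Muc6 was lowest among the non-tuft libraries. In tuft libraries 3 and 4, where Muc6 was also low at 2.06 and 0.55, Chst2 was at 0.34 and 1.24. Chst15, which sulfates chondroitin, ranged from 0 to 1.59 over the tuft libraries and never left the floor in the 5 non-tuft libraries (limma adjusted p = 0.209). Chst14, which sulfates dermatan, was the highest of the family in tuft cells, at only 1.00 ± 0.78 (SD, n = 5 libraries).

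The count of 1 called lower depended on single libraries. It was 3 without non-tuft library 1 (Fut4 and Galnt6 added) or 5 (St3gal5 and St3gal4 added). It was 2 without non-tuft library 3 (B4galt2 added), tuft library 1 (St6gal1 added) or tuft library 2 (Galnt2 added). Chst2 was called in each of these fits. The count called higher lay between 5 and 7 with each library left out, and 5 of the 6 risers were called in all 10 fits, the exception being St3gal6.

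The rest of the sugar-chain pathway, 160 listed genes in 5 lists for donor supply, other glycosyltransferases, N-glycan assembly, glycosaminoglycans and mucus-associated proteins, had 2 genes called higher (1.25%) and 7 called lower (4.38%), and their median log2 difference was -0.17. Both shares are to be read against the 4.32% and 3.99% of all listed genes, and the share that fell is near that background. A4galt, which extends lactosylceramide to globo-series glycolipids (chromosome 15, 83057156 to 83082204), was the larger riser. It was at 2.73 to 5.31 in the tuft libraries, at the floor in non-tuft libraries 1 to 4 and at 4.42 in number 5. On the log2 scale the groups differed by 3.41 (SE 0.83, limma adjusted p = 0.0167), and it lost the call without non-tuft library 3 (adjusted p = 0.0507) or tuft library 3 (adjusted p = 0.0543). Alg6, which glucosylates the N-glycan precursor, also rose, by 2.05 (limma adjusted p = 0.0418), and lost the call when non-tuft library 1, 4 or 5 or any of tuft libraries 2 to 5 was left out (adjusted p up to 0.1) and with the replicate number as a block (0.0688).

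Of the 7 that fell, 4 were in the mucus-associated list of 21 (19%, against 3.99% of all listed genes), and these were Zg16, Bhlha15, Dmbt1 and Tff2. Zg16, a lectin of zymogen granules, fell by 4.69 and Bhlha15, the acinar factor also called Mist1, by 3.79 (adjusted p = 0.00419 and 1.78e-04, limma), and both are also members of the acinar marker list. Dmbt1 and Tff2 were already counted among the genes called lower in the gastric pit and neck list. Dmbt1, a mucin-like scavenger protein, fell by 3.23 (adjusted p = 0.0158, limma, 0.0505 without tuft library 3). Tff2, the trefoil peptide secreted with Muc6 and named here after its values were seen, fell by 3.13 (limma adjusted p = 0.0269) and lost the call when non-tuft library 2, 3 or 4 or any of tuft libraries 1 to 4 was left out (adjusted p up to 0.081) and with the replicate number as a block (0.0726). Centred on ribosomal protein genes, the log2 difference of Tff2 was -2.3 (limma adjusted p = 0.0829) and the call was lost. It was at 8.12 to 12.04 in the non-tuft libraries, high also in numbers 1 and 2 where Muc6 was low, and at 5.15 to 9.24 in the tuft libraries.

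The others that fell were Gfpt1, the first enzyme of UDP-GlcNAc synthesis, Krtcap2, a subunit of the complex that transfers N-glycans to protein, and Sulf2, which removes sulfate from heparan chains. Krtcap2 (chromosome 3, 89049888 to 89053644) fell by 2.32 (SE 0.36, limma adjusted p = 0.00101), from 7.96 to 8.83 in the non-tuft to 5.70 to 6.41 in the tuft libraries. Gfpt1 fell by 2.05 and Sulf2 by 2.42 (adjusted p = 0.0145 and 0.0144, limma), and Gfpt1 came under the fold threshold when tuft library 3, 4 or 5 was omitted, or number 1 or 3 of the non-tuft group (-1.86 to -1.96). Centred on ribosomal protein genes, Krtcap2 (-1.49), Gfpt1 (-1.22) and Sulf2 (-1.6) all came under the fold threshold. Krtcap2 still passed the adjusted p (0.0224, limma), while Gfpt1 (0.06) and Sulf2 (0.0641) did not. The pathway count of 9 called was 4 without tuft library 3.

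**Figure D5:**
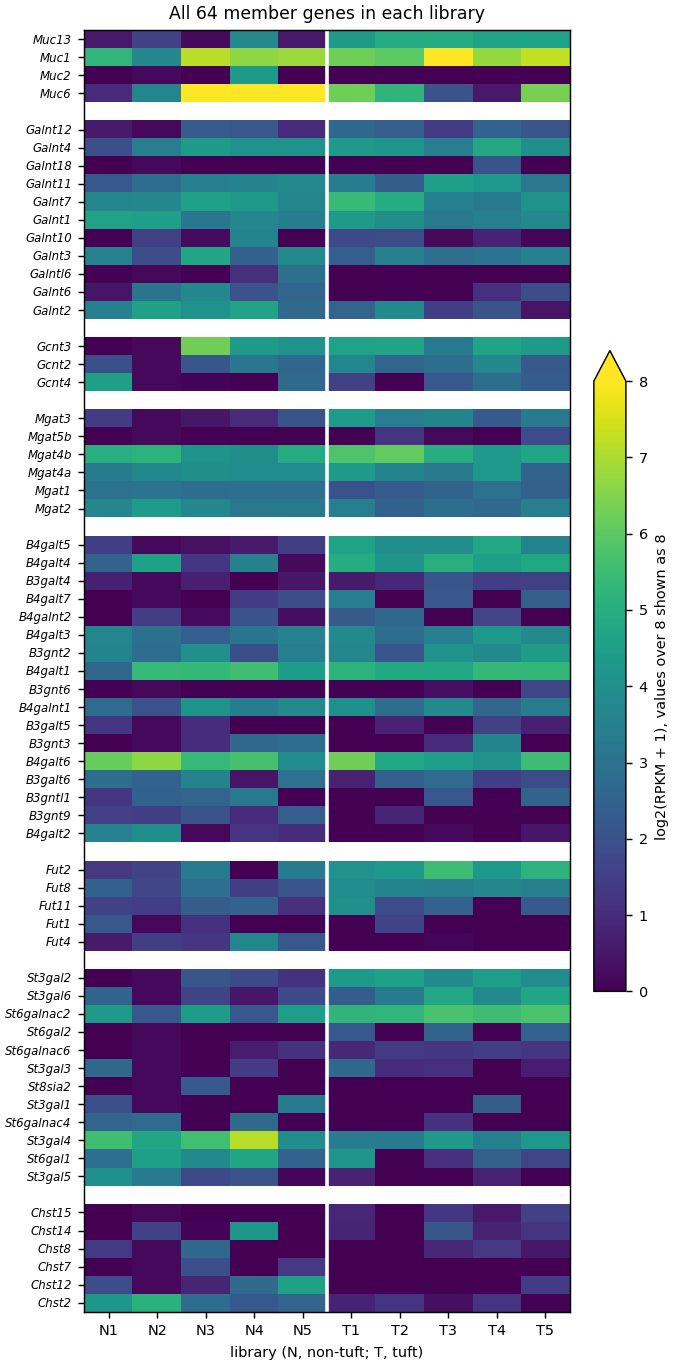
Value in log2(RPKM + 1) of each of the 64 genes in each of the 10 libraries, ordered as in the plot of fold changes by role, with values over 8 drawn as 8. Muc6 in non-tuft libraries 3 to 5 is over 8, while most sulfotransferases, at a median group mean of 0.63 in tuft and 1.01 in non-tuft cells, stay near the floor.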

How the data were processed

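RNA was measured in 10 Smart-Seq2 libraries, 5 of tuft and 5 of non-tuft cells, with groups and replicate numbers from the titles. The authors checked 50 bp reads with FastQC, mapped them to mm9 with HISAT2, quantified RPKM with StringTie and Ballgown, removed genes with an RPKM variance under 1, and deposited log2(RPKM + 1) values after quantile normalization. Versions are not given in the sources used here. The table also holds the authors' fold ratio, p-value and false discovery rate, which were not used. It gives no counts. Sequencing depth is therefore unknown, and floor values set no upper limit.

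From these values, lmFit and eBayes of limma 3.58.1 (R 4.3.3) were run with default settings and no covariates on all 12160 genes, with Benjamini-Hochberg adjustment. Adding 1 before the log understates folds of low genes. The fit was also run on simulated normal values with the same spread in both groups and no floor, so that run does not cover genes near the floor. Exact permutation tests were two-sided, over all ways to choose 5 of 10 libraries. The labels name no batch. Gene positions came from GENCODE M1 (NCBIM37, the assembly also called mm9), which placed 62 of the 64 genes, and figures were drawn with matplotlib 3.10.9 in Python 3.11.15.

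The genes, role groups and lists were chosen with earlier results of these data known. Named are genes called or past the adjusted p, mucins, the largest and smallest change and the highest level of each role, and of each pathway list up to 3 called genes per direction (28 members and 8 others). A further 4, A4gnt, B4galt4, Fut1 and Tff2, were added after their values were seen. Alternatives were 0.1 or 10 added in place of 1, a mean of at least 2, the replicate block, trend and robust settings, centring on 74 ribosomal protein genes, the floor set to 0, other thresholds, and each library left out. Leaving out tuft library 4 and non-tuft library 1 together was chosen after seeing the data.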

Additional observations from a re-analysis of the deposited data

Results flagged for a closer look

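In 5 of 60 sets of 5 library values, 2 for each named member, 1 library stood apart by Dixon's test. Chance flags about 1 of 20 sets of untied values, but this rate does not hold for 4 of the 5, where the other libraries were all at the floor and any value above it is flagged. Muc2 was at 4.37 in non-tuft library 4 and at the floor in the other non-tuft libraries. Fut1 was at 1.64 in tuft library 2, B3gnt9 at 0.84 in tuft library 2 and Fut4 at 0.11 in tuft library 3, each with the other tuft libraries at the floor. Gcnt3 was lower in tuft library 3, at 3.34, than in the other tuft libraries, at 4.35 to 4.68.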

How the results depend on the processing

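Of 829 alternative results for single named genes, 729 kept their direction and side of the threshold, 57 lost a call, 27 gained one and 16 changed sign. Those with another threshold repeat the main fit and change only the cut-off. Members called higher (6) and lower (1) were 0 and 0 with 10 added to each RPKM in place of 1, where limma still gave 9 higher and 0 lower at the adjusted p alone (9 and 7 at an unadjusted p under 0.05), since this scale shrinks folds. They were 10 and 0 under centring on ribosomal protein genes, where 1355 and 221 of all 12160 listed genes were called. Called lower were 3 with 0.1 added, with a fold threshold of 2 or none, and without both tuft library 4 and non-tuft library 1. With each library left out, the counts lay between 5 and 7 and between 1 and 3. The 9 called pathway genes were 5 with 10 added, 16 under centring, 16 with a fold threshold of 2 or none, 3 at an adjusted p under 0.01, and 4 to 10 with each library left out. The 16 under centring did not hold Krtcap2, Gfpt1, Sulf2 or Tff2. Signs changed under centring for B4galt6 (0.32), Chst14 (0.64), Fut1 (0.46) and Mgat2 (0.18), with 0.1 added for Chst14 (0.52), with 10 added for Gcnt4 (-0.09), and without both libraries for B4galt1 (-0.15) and Fut1 (0.08). With each library left out, log2 fold changes ran from -0.08 to 0.63 for B4galt1, from -0.48 to 0.58 for Chst14, from -0.70 to 0 for Fut1, from -0.07 to 0.48 for Galnt7 and from -0.09 to 1.05 for Gcnt4, none of them called.

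Same-numbered tuft and non-tuft libraries deviated together by r = 0.08 to 0.24 across 7270 genes, over 0.1 for 3 of 5 numbers, and 3 of 5 correlated best with their own number. Both cell fractions came from the same 5 mice, but no source used here ties a number to a mouse, so the fit without the block was kept and a shared mouse per number is possible. With the replicate number as a block, 6 members were called higher and 1 lower, and 7 pathway genes in place of 9, without Alg6 and Tff2. It also put the adjusted p of Fut4, which was under the fold threshold, over 0.05. Depth is unknown, and low genes near the floor, such as most sulfotransferases, carry little information on folds.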
